A study of Mus musculus with 141 samples.

Results

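Of the 17136 genes counted in these cells, 8 genes of the major histocompatibility complex (MHC) pathway are described, chosen by name. They are H2-Aa, H2-Ab1 and H2-Eb1, which encode chains of MHC class II, Cd74, which encodes the invariant chain that accompanies class II through the cell, Ciita, the transactivator that class II genes depend on, H2-K1 and H2-D1, which encode classical class I heavy chains, and B2m, which encodes the beta-2 microglobulin that pairs with them. The cells came from the lungs of 1 male ACID;R26tdTomato mouse of strain 129SV aged 4 months, with no treatment given. The mouse carried both alleles in heterozygous form. Cre is made from the Aqp5 locus and switches on tdTomato in cells that make it or descend from cells that did, and the sort took CD31- CD45- E-cadherin+ tdTomato+ cells onto a Fluidigm C1 chip, which lyses each cell at its own site. The label calls every cell alveolar type 1, but the markers did not bear this out for all cells, so the cells were split by 2 genes into 64 type 1 cells (Ager, a receptor of the type 1 membrane, at 5000 CPM or more, where CPM are reads for each 1000000 reads of the cell), 27 type 2 cells (Sftpc, surfactant protein C, at 8000 CPM or more) and 50 others, here called the rest. With 1 mouse there is 1 sample, and no difference between the classes was tested across animals.

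Antigen presentation runs along 2 routes. Class I displays peptides made inside the cell and is carried by nearly every nucleated cell, while class II displays peptides taken up from outside and is kept mostly to professional antigen-presenting cells such as dendritic cells, B cells and macrophages. The alveolar type 2 cell, which makes surfactant and renews the alveolar epithelium, is one of the few epithelial cells known to carry class II without inflammation. Transcription of class II genes needs a complex on the W, X and Y boxes of their promoters, to which the class II transactivator binds, and class I promoters hold related elements beside a kappa B site.

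The class II and class I heavy chain genes lie together on mouse chromosome 17 (GRCm38, GENCODE vM21): H2-K1 at chr17:33996017-34000347, H2-Ab1 at chr17:34257689-34269419, H2-Aa at chr17:34282744-34287823, H2-Eb1 at chr17:34305867-34316674 and H2-D1 at chr17:35262730-35267499. B2m is at chr2:122147686-122153083 and Ciita at chr16:10480059-10528418. In the annotation B2m overlaps Patl2, Ciita overlaps Dexi and H2-Eb1 overlaps an antisense gene, Gm20513, and since the sources used here do not say whether counting used strand, reads of such partners cannot be told apart. Of the 8 genes, 5 had a promoter in the RefSeq set (GRCm38.p6, a reference and not the strain of this mouse), and their 180 bases before the RefSeq transcription start are printed to show the elements that the genes share. For H2-D1 the RefSeq start lies inside the GENCODE gene, so its window is within the span given above. Capitals mark the Y box core CTGATTGG, the shorter ATTGG that it contains, the X box core GCAACNGAT, the cyclic AMP element TGACGTCA, the kappa B site core GGGATTCCC and the interferon element core GAAACNGAA, each on either strand. The letters were taken from known elements of these genes, that of the X box from H2-Eb1, and the window was lengthened after a look so that it held the kappa B sites of both H2-K1 and H2-D1.
H2-Aa, chr17:34287824-34288003, - strand: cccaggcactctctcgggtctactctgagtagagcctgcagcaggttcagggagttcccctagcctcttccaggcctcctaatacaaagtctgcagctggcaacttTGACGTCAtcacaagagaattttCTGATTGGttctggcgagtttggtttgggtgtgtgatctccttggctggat
H2-Eb1, chr17:34305687-34305866, + strand: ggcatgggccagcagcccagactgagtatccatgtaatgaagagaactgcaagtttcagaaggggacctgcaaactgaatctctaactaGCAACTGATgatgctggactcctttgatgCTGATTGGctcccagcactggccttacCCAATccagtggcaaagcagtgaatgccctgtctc
H2-K1, chr17:34000348-34000527, - strand: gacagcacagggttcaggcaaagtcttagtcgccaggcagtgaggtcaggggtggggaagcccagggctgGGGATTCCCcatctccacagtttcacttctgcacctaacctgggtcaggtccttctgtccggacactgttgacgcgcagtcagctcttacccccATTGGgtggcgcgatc
H2-D1, chr17:35262914-35263093, + strand: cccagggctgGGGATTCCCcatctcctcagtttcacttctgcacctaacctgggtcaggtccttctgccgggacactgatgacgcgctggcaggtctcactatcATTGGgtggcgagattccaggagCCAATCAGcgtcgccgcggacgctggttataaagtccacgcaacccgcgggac
B2m, chr2:122147507-122147686, + strand: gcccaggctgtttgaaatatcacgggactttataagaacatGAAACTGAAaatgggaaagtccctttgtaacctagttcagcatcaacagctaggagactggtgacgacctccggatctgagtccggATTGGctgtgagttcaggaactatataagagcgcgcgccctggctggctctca

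The Y box core stood in the H2-Aa, H2-Eb1 and H2-D1 windows and in 3.45% of all 32851 promoter windows of 180 bases, and ATTGG stood in all 5 and in 27.5% of all. The kappa B site was in H2-K1 and H2-D1 and in 0.180% of all windows, the X box core in H2-Eb1 (0.237% of all), the cyclic AMP element in H2-Aa (1.45%) and the interferon element core in B2m (1.06%). The X box letters came from H2-Eb1 and the window was lengthened to hold both kappa B sites, so those matches were fixed in advance. The other letters also came from known elements of these genes. The shares of all windows are therefore no measure of how unusual the matches are. A window without the X box letters may still hold an X box of other letters. These are matches of letters and no measure of binding.

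The cells carried between 91402 and 2170760 reads, with a median of 419970, and mitochondrial genes took 3.03% to 36.9% of them. Median depth was 426602 reads in type 1 cells, 306356 in type 2 cells and 536054 in the rest, and the median mitochondrial share was 11.9%, 18.2% and 9.96%. No cell passed both cuts. Reads of tdTomato were found in 51 of 64 type 1 cells, 5 of 27 type 2 cells and 37 of the 50 others. The classes are ranges on 2 genes and not types. The Ager cut fell between a cell at 4696 CPM and one at 5678 CPM, and the Sftpc cut between 7774 and 8718 CPM, with 5 cells within a factor of 2 of the first cut and 6 of the second. The cell at 8718 CPM of Sftpc, at chip column 11 and row 23, was also the one at 4696 CPM of Ager. Of 11 other type 1 markers such as Hopx, type 1 cells had a median of 10 at 100 CPM or more and type 2 cells 2. Of 11 other type 2 markers such as Lamp3, type 2 cells had a median of 9 and type 1 cells 1. By their markers the rest held 18 ciliated-like, 16 club-like, 10 basal-like and 3 fibroblast-like cells and 3 with no name, under a rule set after the data had been seen.

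Type 2 cells carried the class II genes at levels far above those of any other class. Summed over its reads, the type 2 class had 3926 CPM of the 4 genes H2-Aa, H2-Ab1, H2-Eb1 and Cd74 together (95% exact Poisson interval 3889 to 3963), against 21.6 CPM (19.97 to 23.3) in type 1 cells and 88.6 CPM (85.4 to 92.01) in the rest. Intervals cover counting error only, and reads amplified by PCR are not independent molecules. The log2 ratio of type 2 cells to all other cells was 6.15 (6.10 to 6.20), a 71.2-fold difference. All 4 genes were past 4-fold, as were 8.31% of the 9951 genes that had at least 10 CPM in the higher group, and the median log2 ratio of those genes was -0.78. H2-K1, H2-D1 and B2m were not past 4-fold, and Ciita was too low to be counted.

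The separation held cell by cell. The summed class II level was 1059 CPM in the lowest type 2 cell, 3411 CPM in the median cell and 9687 CPM in the highest. All 27 type 2 cells lay above all but 1 of the other cells, whose second highest value was 524.8 CPM, and the exception was 1 cell of the rest at 4717 CPM, described further on. Without that cell the log2 ratio was 7.17 (7.10 to 7.24).

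**Figure D1:**
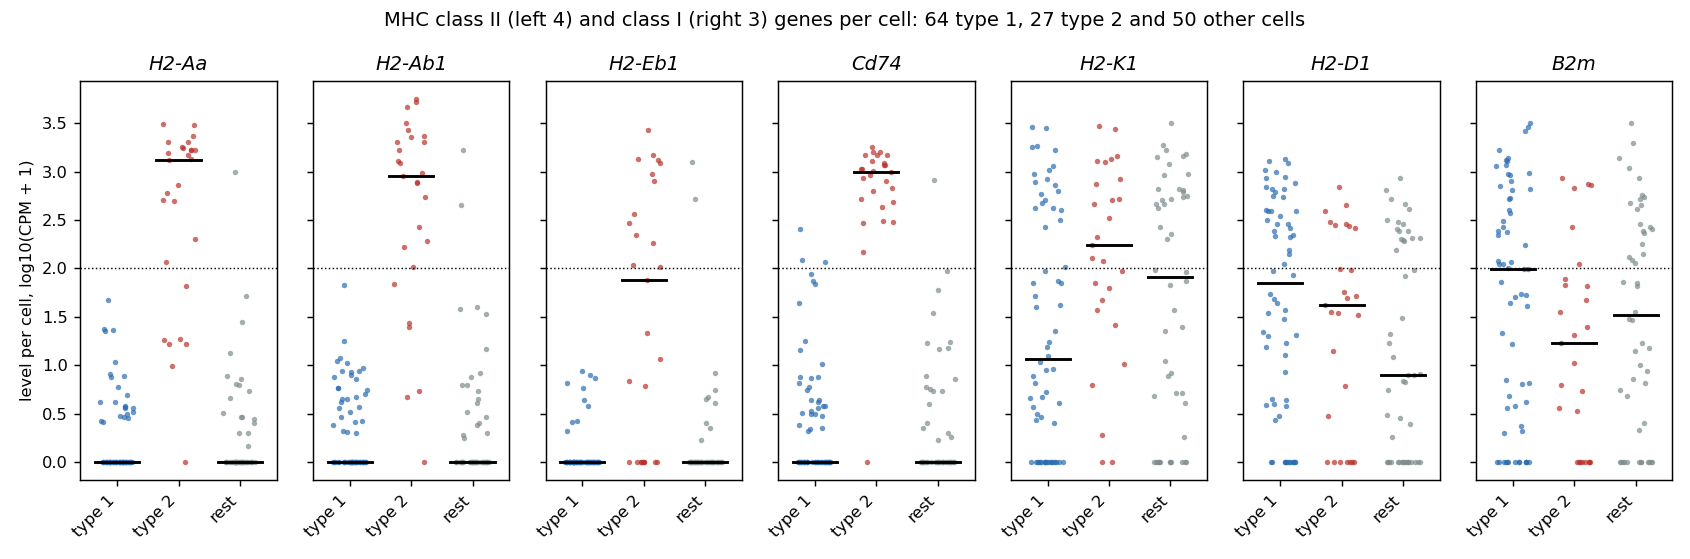
Level of each gene in each cell, as log10 of CPM plus 1, for 64 type 1, 27 type 2 and 50 other cells. Each point is a cell, the bar is the class median and the dotted line is 100 CPM. The 4 class II panels at the left stand high in type 2 cells with medians of 0 elsewhere, while the 3 class I panels at the right spread over the whole range in every class.

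H2-Aa, the class II alpha chain of the A molecule, was read at 1120 CPM (1101 to 1141) in type 2 cells. Single type 2 cells ran from 0 to 3081 CPM with a median of 1328, and 20 of 27 (74.1%, exact Clopper-Pearson interval 53.7% to 88.9%) had at least 100 CPM. The gene was at 2.09 CPM in type 1 cells, where the highest cell had 46.6 CPM and the median 0. The rest stood at 13.01 CPM, of which 89.4% came from 1 cell, and at 1.39 CPM without it. Type 2 cells exceeded all others by a log2 ratio of 7.21 (7.08 to 7.35).

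H2-Ab1, its beta chain partner, was read at 1426 CPM (1404 to 1449) in type 2 cells. Their cells ran from 0 to 5586 CPM with a median of 896, and 21 of 27 reached 100 CPM. Type 1 cells had 2.54 CPM with a highest cell at 66.6 CPM, and the rest 26.3 CPM, or 6.45 CPM without the cell that held 75.8% of the reads. The log2 ratio of type 2 cells to all others was 6.62 (6.53 to 6.72).

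H2-Eb1, the beta chain of the E molecule, was the most uneven of the 4 within type 2 cells. The class had 455 CPM (443 to 468), but 9 of 27 cells had no read, the median cell had 74.1 CPM and the highest 2653 CPM. At 100 CPM or more there were 13 of 27 cells (48.1%, 28.7% to 68.1%). The coefficient of variation over type 2 cells was 1.61, against 0.882 for H2-Aa, 1.13 for H2-Ab1 and 0.538 for Cd74. Type 1 cells had 16 reads in all, 0.514 CPM, with no cell over 7.67 CPM. The rest had 35.3 CPM, and 2 ciliated-like cells at 1239 and 524.0 CPM gave nearly all of it. H2-Ea, the gene of the E alpha chain, was not in the counts, so these values do not show whether a whole E molecule was made.

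Cd74, the invariant chain, was the most even. Type 2 cells had 924 CPM (906 to 942), with a range of 0 to 1776 and a median of 983 CPM, and 26 of 27 (96.3%, 81.03% to 99.9%) reached 100 CPM. The type 2 cell without a Cd74 read, at column 20 and row 17, had 1318 CPM of H2-Eb1. Type 1 cells had 16.4 CPM (15.03 to 17.9) and the rest 13.97 CPM, or 4.44 CPM without its highest cell. The log2 ratio of type 2 cells to all others was 5.93 (5.83 to 6.02).

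Ciita was nearly absent from the reads. The type 2 class had 15 reads (1.38 CPM), all in 1 cell at column 6 and row 32, which had 2026 CPM of H2-Aa and 1484 CPM of H2-Eb1. No read fell in the other cells, which allows up to 0.0481 CPM at 3 reads. The other 26 type 2 cells carried class II reads without a Ciita read. At their class's median depth of 306356 reads, a level of 1 CPM gives less than 1 read. A cell without a Ciita read may therefore still have held its RNA.

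**Figure D2:**
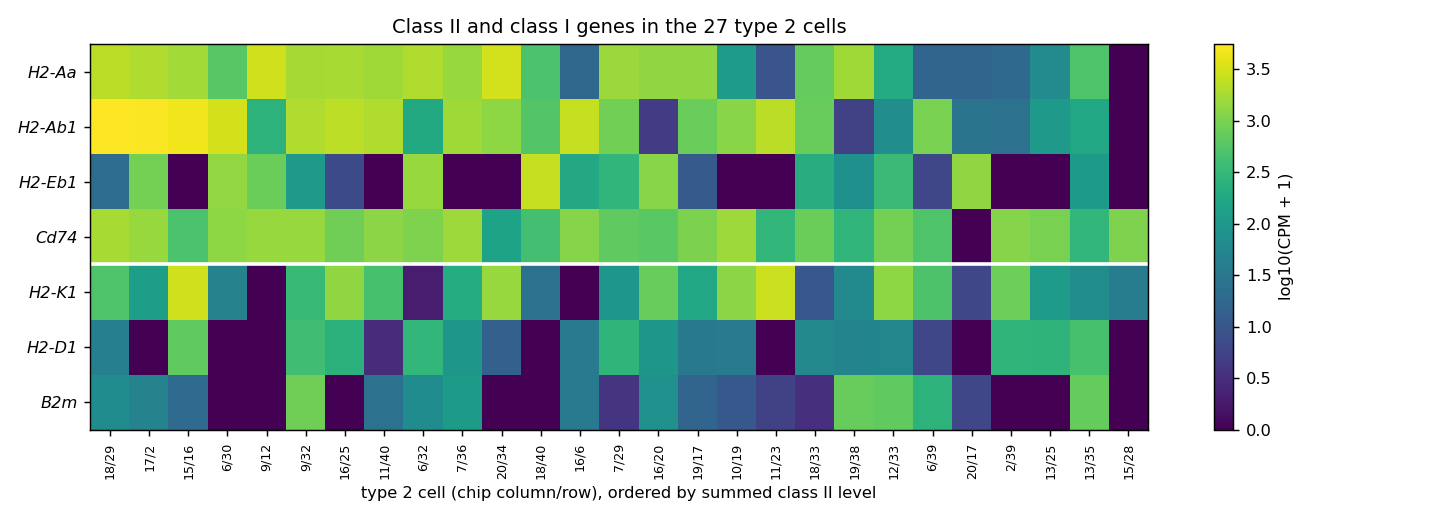
The 4 class II genes (above the white line) and 3 class I genes (below) in each of the 27 type 2 cells, coloured by log10 of CPM plus 1 and ordered by the summed class II level from 9687 CPM at the left to 1059 CPM at the right. Cd74 is bright in nearly every column, while H2-Eb1 and the class I genes drop to 0 in many cells.

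Not every type 2 cell carried all 4 class II genes. Reads of all 4 were found in 17 of 27 cells (62.96%, 42.4% to 80.6%), against 2 of 64 type 1 cells and 3 of the 50 others. At 100 CPM or more, 9 type 2 cells held all 4 genes, 11 held 3, 4 held 2 and 3 held 1. The 3 cells with 1 gene were the Cd74-only cells at column 15, row 28 (1059 CPM) and column 2, row 39 (1159 CPM) and the H2-Eb1-only cell at column 20, row 17. H2-Aa and H2-Ab1, whose proteins form 1 heterodimer, were both at 100 CPM or more in 17 type 2 cells, with 3 cells holding H2-Aa alone and 4 H2-Ab1 alone. Among the 4, the cell at column 11 and row 23 was the one nearest both class cuts, with 2286 CPM of H2-Ab1 and 8.81 CPM of H2-Aa.

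Spearman's rho over the 27 cells was 0.37 for Cd74 and H2-Ab1, 0.36 for H2-Aa and H2-Ab1, 0.21 for H2-Aa and Cd74, 0.16 for H2-Aa and H2-Eb1, -0.09 for Cd74 and H2-Eb1 and -0.14 for H2-Ab1 and H2-Eb1. That of Cd74 and H2-Ab1 was 0.61 over the 11 type 2 cells with a mitochondrial share below 0.15 and 0.55 with both class cuts divided by 2. The cells share 1 mouse and 1 chip, and each value divides by the same read total, so these are descriptions. Summed class II level had a rho of 0.38 with Sftpc, 0.16 with total reads and -0.21 with the mitochondrial share. Of the 12 pairs of a class II with a class I gene, rho ran from -0.59 (H2-Eb1 and H2-K1) to 0.29 (H2-Ab1 and H2-K1), and between the class II sum and the class I sum it was -0.0037. Leaving out the 2 type 2 cells farthest from the median of H2-Eb1 gave -0.52 for H2-Eb1 and H2-K1.

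**Figure D3:**
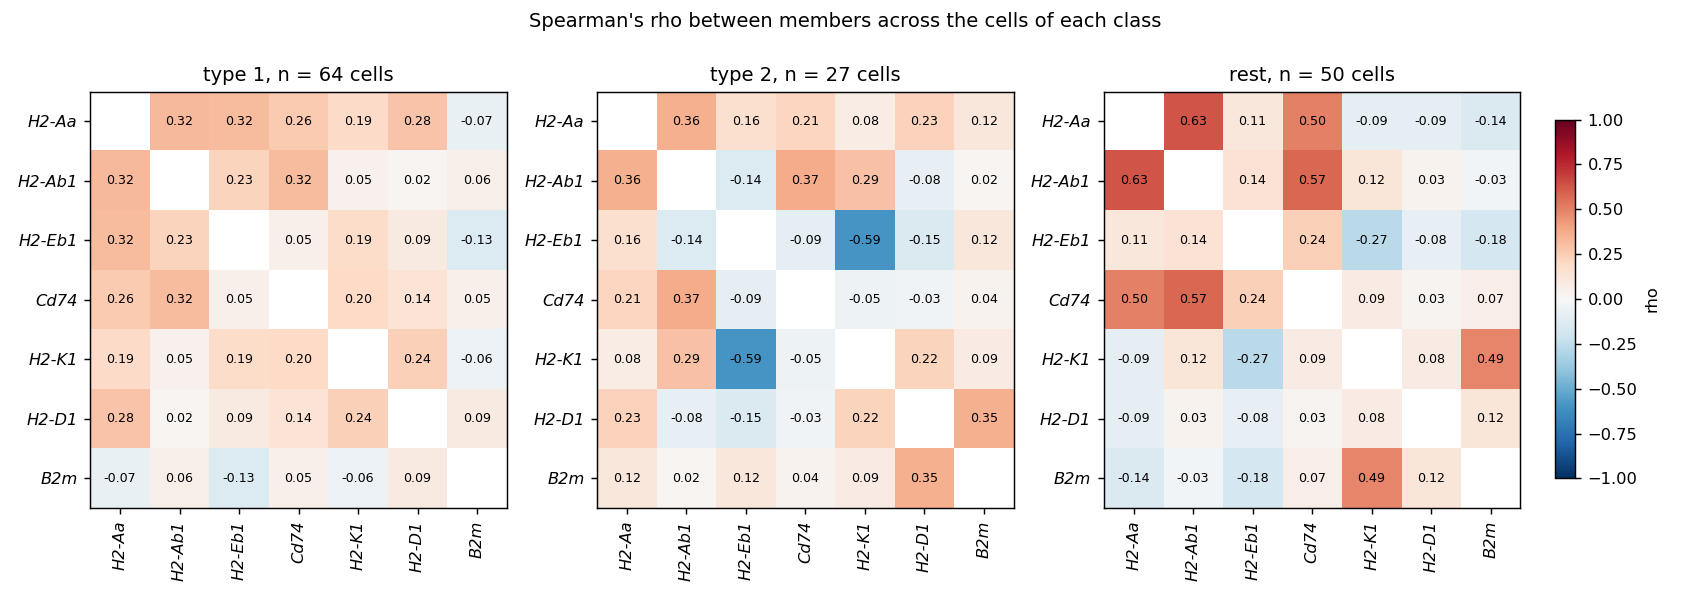
Spearman's rho between the 7 genes across the 64 type 1 cells, 27 type 2 cells and 50 other cells, red for positive and blue for negative. No pair of genes exceeds 0.37 in type 2 cells, and the deepest blue is H2-Eb1 with H2-K1 at -0.59. In type 1 cells and the rest the class II values rest on few reads per cell.

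Outside type 2 cells, class II reads were frequent but few. At least 1 read of a class II gene was found in 49 of 64 type 1 cells and 32 of 50 others, but 100 CPM of any was reached in only 3 and 3 cells. With every cell thinned to 90000 reads, H2-Ab1 was read in 25 of 27 type 2 cells, 8 of 64 type 1 cells and 11 of 50 others (26, 30 and 20 before thinning). Sftpc itself, which marks type 2 cells, was read in all 64 type 1 cells at 250 CPM. The class II reads were also set against the Sftpc reads of the same class. Sftpc also set the type 2 cut, so these ratios depend on how the classes were formed. For each 1000 Sftpc reads, type 2 cells had 8.83 reads of H2-Aa (8.68 to 8.99) and 11.2 of H2-Ab1 (11.1 to 11.4). Type 1 cells had 8.35 (6.44 to 10.7) and 10.2 (8.03 to 12.7). H2-Eb1 had 3.59 (3.49 to 3.69) in type 2 cells and 2.06 (1.17 to 3.34) in type 1 cells. The rest had 14.3 of H2-Aa, 28.96 of H2-Ab1 and 38.8 of H2-Eb1, and 1.53, 7.06 and 22.9 without the cell at 4717 CPM. Single cells also dominated these last values. A ciliated-like cell held 633 of the 644 H2-Eb1 reads, and a club-like cell 142 of the 199 H2-Ab1 reads. The club-like cells held 19955 of the 28183 Sftpc reads. The intervals cover counting error of reads and not the spread between cells. The surfactant genes Sftpa1 and Sftpb, also marks of type 2 cells, had 253 and 163 reads for each 1000 of Sftpc in type 1 cells against 197 and 83.9 in type 2 cells. Lamp3, another such mark, had 32.4 in type 1 cells and 14.9 in type 2 cells. The part of type 2 RNA in these type 1 reads was not tested.

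For each 1000 Sftpc reads, Cd74 had 65.7 reads (59.9 to 71.8) in type 1 cells against 7.28 (7.14 to 7.43) in type 2 cells. Most of the type 1 value came from 3 cells, and without them it was 22.3 (19.01 to 25.97). These 3 cells, at 100 CPM or more, had 256, 121.9 and 114.5 CPM of Cd74 and at most 4.02 CPM of H2-Aa, H2-Ab1 or H2-Eb1. They had 10 or 11 of the 11 type 1 markers at 100 CPM and at most 1 of the 11 type 2 markers at that level. Each had reads of 8 or 9 of those type 2 markers, between 89 and 461 reads in all. The remaining 61 type 1 cells stayed below 100 CPM, and 33 of the 64 had no Cd74 read.

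**Figure D4:**
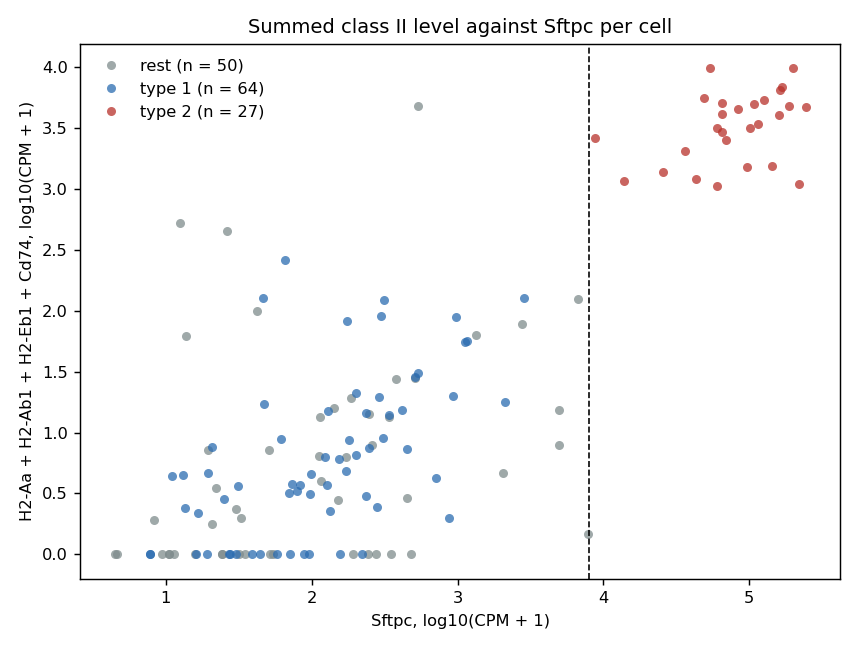
Summed level of the 4 class II genes against Sftpc in each cell, both as log10 of CPM plus 1, with the dashed line at the Sftpc cut of 8000 CPM. The 27 type 2 cells lie together at the upper right, and the cell of the rest at 4717 CPM of class II and 536 CPM of Sftpc stands alone above the others.

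One cell outside type 2 carried the whole class II set. It lay at column 17 and row 29 and had 982 CPM of H2-Aa, 1686 of H2-Ab1, 1239 of H2-Eb1 and 809 of Cd74. It had reads of all 10 ciliated markers, 7 of them at 100 CPM or more, and of 3 of the 11 type 2 markers with 3 reads in all. At 100 CPM or more it also had 3 of the 8 club markers and 3 of the 11 type 1 markers, where ciliated-like cells had medians of 3 and 1.5. Scgb1a1 stood at 9799 CPM in this cell. It had 1 read of the class II loading genes, 57 reads of H2-D1 (154.2 CPM) and no read of H2-K1 or B2m. It held 198 Sftpc reads beside 1743 class II reads, or 8803 class II reads for each 1000 of Sftpc (7596 to 10249), where type 2 cells had 30.95. Of the leukocyte, macrophage, dendritic and B cell markers in the counts, 0 of 7 had a read in it. Most listed markers were not in the counts, Zbtb46 had no read in any cell and Ptprc had reads in 1 cell of the rest. A value of 0 here therefore says little. A type 2 cell shared its chip column, with 2018, 5238, 933 and 1481 CPM of the 4 genes in the same order and 53607 CPM of Sftpc. This cell supplied 97.6% of the H2-Aa reads of the 18 ciliated-like cells. Another ciliated-like cell, at column 11 and row 10, had 524.0 CPM of H2-Eb1 and 1 read among the other 3 genes, and a club-like cell at column 9 and row 24 had 449.7 CPM of H2-Ab1 and no read of the other 3.

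In the rest against type 1 cells, H2-Aa, H2-Ab1 and H2-Eb1 were past 4-fold higher and Cd74 was not. Of the 10386 genes compared, 24.1% were past 4-fold higher in the rest and 19.5% lower. The 3 differences rest on the few cells just named.

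Of the 12 genes of the class II loading list, 6 were in the counts, and 3 of these were past 4-fold higher in type 2 cells and 0 lower, where 8.31% of all genes compared were higher and 39.8% lower. The 3 were the H2-DM genes, whose protein exchanges the invariant chain peptide for antigen. H2-DMa was at 135.1 CPM in type 2 cells, in 8 of 27 cells, with 2 reads in all other cells, a log2 ratio of 12.04 (10.18 to 15.09). H2-DMb1 was at 81.4 CPM in type 2 cells, in 13 of 27, against 1.29 CPM in type 1 cells and 0.929 in the rest. H2-DMb2 was at 13.2 CPM, in 3 type 2 cells. One type 2 cell held 46.3% of all H2-DMa reads and another 66.4% of all H2-DMb2 reads, and without these cells the type 2 class had 83.9 CPM of H2-DMa and 4.61 CPM of H2-DMb2, the latter too low to be counted. Ifi30, the lysosomal thiol reductase, was at 34.02 CPM in type 2 cells, 19.8 in type 1 cells and 5.86 in the rest, and was not past 4-fold, but it was without the type 1 cell that held 35.2% of its reads, at a log2 ratio of 2.44. Of the proteases that cut the invariant chain, Ctsl was at 57.9 CPM in type 2 cells, 199.6 in type 1 cells and 185 in the rest, and Lgmn at 51.1, 177 and 10.7 CPM, both short of 4-fold.

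The regulators gave no common direction. All 7 were in the counts and 6 had 10 CPM, of which Nfyb, a subunit of the factor that binds the Y box, was past 4-fold higher in type 2 cells at 84.4 CPM, with 15.1 in type 1 cells and 6.54 in the rest, and 3 were past 4-fold lower, where 8.31% of all genes compared were higher and 39.8% lower. Nfyb was read in 4 of 27 type 2 cells, and without the cell that held 44.2% of its reads the class had 20.99 CPM, a log2 ratio of 0.95, short of 4-fold. Among the 3, Rfxap, which binds the X box, had 6.25 CPM in type 2 cells, 20.99 in type 1 cells and 52.97 in the rest, and Rfx5 had 3.68, 4.72 and 31.3 CPM, with 77.8% of its reads from 1 cell of the rest, without which it was too low to be counted. Rfxank had no read in type 2 cells. Creb1 was at 60.1 CPM in type 2 cells (2.34 CPM without 1 cell, which put it past 4-fold lower), 37.8 in type 1 cells and 9.20 in the rest, and Nfyc between 37.1 and 41.4 CPM in the 3 classes.

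**Figure D5:**
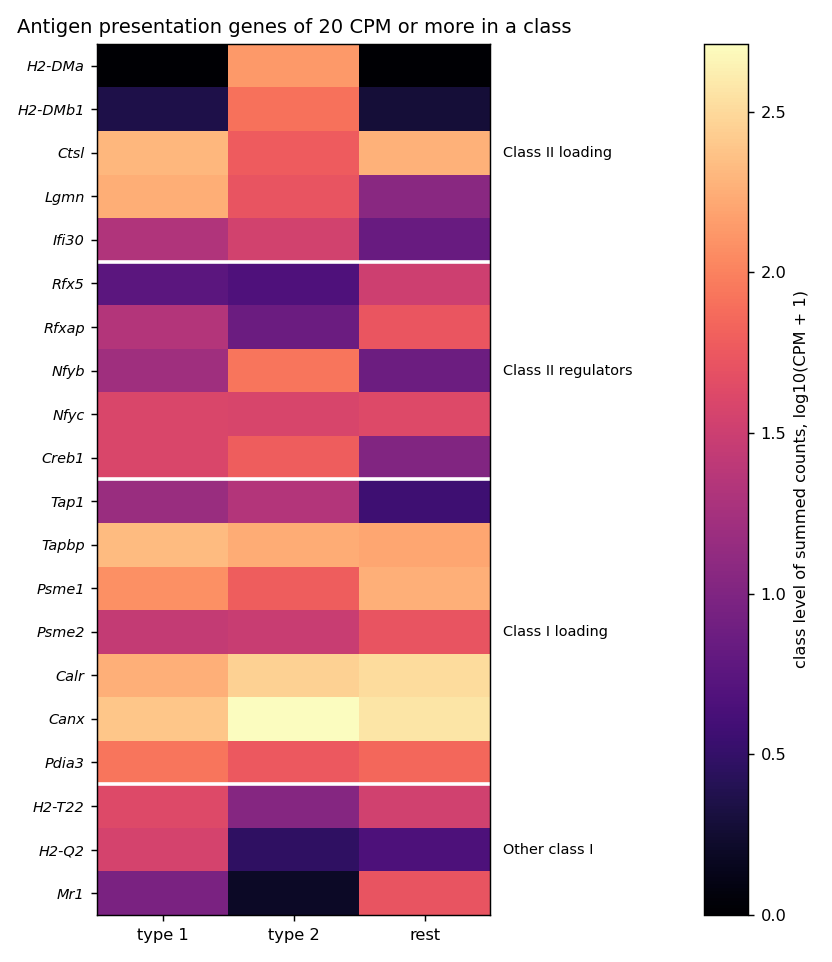
Class level of each antigen presentation gene that reached 20 CPM in a class, as log10 of CPM plus 1 of summed counts, for type 1 cells, type 2 cells and the rest, grouped by list. H2-DMa and H2-DMb1 are dark outside type 2 cells (135.1 and 81.4 CPM within), while the class I loading genes such as Tapbp, Calr and Canx are bright in all 3 classes.

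The class I genes were found in every class, and no class lacked them. Reads of H2-K1, H2-D1 or B2m were present in 60 of 64 type 1 cells, 26 of 27 type 2 cells and 47 of the 50 others. At 100 CPM or more of any, the counts were 48 of 64 (75%, 62.6% to 84.98%), 20 of 27 (74.1%, 53.7% to 88.9%) and 37 of 50 (74%, 59.7% to 85.4%). The 3 genes summed to 1142 CPM (1130 to 1154) in type 1 cells, 950.3 CPM (932 to 969) in type 2 cells and 888 CPM (878 to 898) in the rest. The log2 ratio was 0.27 (0.23 to 0.30) for type 1 against type 2 cells and -0.36 (-0.39 to -0.34) for the rest against type 1 cells. None of the 3 genes was past 4-fold between type 1 and type 2 cells, nor between the rest and type 1 cells, while all 4 class II genes were past it on the lower side in type 1 cells. Of the 9038 genes compared between type 1 and type 2 cells, 36.2% were past 4-fold higher in type 1 cells and 14.9% lower. The sign for the sum of type 1 against type 2 cells turned when mitochondrial genes, Sftpc and Scgb1a1 were left out of the read totals, to -0.033, and the sign for the rest against type 1 cells turned among cells of chip columns 1 to 10, to 0.11.

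The 3 class I genes did not share 1 order of classes. H2-K1 was highest in type 2 cells at 578 CPM (564 to 593), then the rest at 385 (378 to 392) and type 1 cells at 331 (324 to 337). Its cells overlapped completely, from 0 to 2871 CPM in type 1 cells (median 10.6), 0 to 2960 in type 2 cells (median 173) and 0 to 3173 in the rest (median 81.4). H2-K1 reached 100 CPM in 16 of 27 type 2 cells (59.3%, 38.8% to 77.6%) and 21 of 64 type 1 cells (32.8%, 21.6% to 45.7%). One type 1 cell gave 23.4% of the type 1 reads, and without it that class had 260.5 CPM. The log2 ratio of type 1 to type 2 cells was -0.81 (-0.85 to -0.76).

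H2-D1 was highest in type 1 cells at 302 CPM (296 to 308), with type 2 cells at 143 (136.4 to 151) and the rest at 136.2 (132.1 to 140.3), and the intervals of the last pair overlapped. Its cells ran from 0 to 1349 CPM in type 1 cells (median 68.9), 0 to 684 in type 2 cells (median 41.1) and 0 to 852 in the rest (median 6.93). It reached 100 CPM in 30 type 1 cells, 8 type 2 cells and 17 others. The log2 ratio of type 1 to type 2 cells was 1.07 (1.00 to 1.15), and 0.66 among cells with a mitochondrial share below 0.15.

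B2m was also highest in type 1 cells, at 509.7 CPM (502 to 518), then the rest at 367 (360 to 373) and type 2 cells at 228 (219.5 to 238). Its cells ran from 0 to 3164 CPM in type 1 cells (median 97.98), 0 to 851 in type 2 cells (median 15.9) and 0 to 3197 in the rest (median 31.8). In type 2 cells 40.1% of the reads came from 1 cell, without which the class had 159 CPM. It reached 100 CPM in 30 type 1 cells, 6 type 2 cells and 21 others. The log2 ratio of type 1 to type 2 cells was 1.16 (1.10 to 1.22), and 0.78 among cells with a mitochondrial share below 0.15.

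Within the rest, B2m was at 801 CPM in the 10 basal-like cells and 655 CPM in the 3 fibroblast-like cells, against 217 CPM in the ciliated-like and 161 CPM in the club-like cells. H2-K1 gave 506 CPM in basal-like, 742 in fibroblast-like, 394 in club-like and 167 in ciliated-like cells. H2-D1 gave 97.7, 187, 186 and 97.7 CPM in the same order. The ciliated-like cells were thus lowest in H2-K1 of these 4 groups, and 1 basal-like cell gave 40.7% of the B2m reads of its group.

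Reads of H2-K1, H2-D1 and B2m were found together in 32 of 64 type 1 cells, 15 of 27 type 2 cells and 22 of the 50 others. All 3 were at 100 CPM or more in 6 of 64 type 1 cells (9.38%, 3.52% to 19.3%), 1 of 27 type 2 cells and 6 of the 50 others. B2m and H2-K1, whose proteins form 1 complex, had a rho of -0.06 in type 1 cells, 0.09 in type 2 cells and 0.49 in the rest. The B2m level had a rho of 0.36 with total reads in type 1 cells and 0.57 in type 2 cells, and of -0.30 and -0.35 with the mitochondrial share. The part of depth and RNA quality in these levels was not tested. Over the last 500 bases of their longest coding transcripts, none of the 8 genes had a stretch of 120 bases, the read length, that occurred exactly in a transcript of another gene, but class I genes are near copies of each other and reads with mismatches could still have been placed on the wrong one.

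The class I loading genes differed in how many cells carried them. Of the 14 genes of the list, 13 were in the counts and 9 had 10 CPM, of which 0 were past 4-fold higher in type 2 cells and 1 lower, Erap1, a peptide-trimming enzyme, where 8.31% of all genes compared were higher and 39.8% lower. Without the cell with the most reads of each gene, Erap1 was too low to be counted and Tap1 was past 4-fold higher, at a log2 ratio of 2.81. The cell left out for Tap1 was a type 1 cell. Of the 4 type 2 cells with a Tap1 read, 1 reached 100 CPM. Calr was read in 52 of 64 type 1 cells, 17 of 27 type 2 cells and 39 of the 50 others, and Tap1 in 8, 4 and 4. Tapbp, the tapasin that bridges class I to the peptide transporter, had 208 CPM in type 1 cells, 171 in type 2 cells and 159 in the rest. The chaperones Calr (181, 283 and 324 CPM in the same order) and Canx (241, 513 and 366) and the proteasome activator Psme1 (119.6, 59.1 and 183) were also in every class. Psme2, its partner, had 27.2, 29.1 and 51.4 CPM, Pdia3, which assists disulfide bonds of the loading complex, 84.3, 55.6 and 69.1 CPM, and Tap1, a chain of the transporter, 13.9, 20.8 and 2.66 CPM.

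Of the 17 other class I and class I-like genes, 14 were in the counts, 5 had 10 CPM, and 3 of those were past 4-fold lower in type 2 cells and 0 higher, where 39.8% of all genes compared were lower. The 3 were H2-Q2, Mr1 and Fcgrt, the neonatal Fc receptor. Without the cell with the most reads of each gene, of these Mr1 alone was past 4-fold lower, and H2-T23 was past 4-fold higher. The cell left out for H2-T23 was of the rest, and no type 2 cell reached 100 CPM of H2-T23. H2-T22, not past 4-fold, was at 41.3 CPM in type 1 cells, 9.93 in type 2 cells and 33.1 in the rest. Mr1, which presents vitamin metabolites to mucosal T cells, was at 51.8 CPM in the rest, 8.29 in type 1 cells and 0.552 in type 2 cells. H2-Q2 was at 35.8 CPM in type 1 cells, with 86.7% of its reads from 1 cell.

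Of the 6 costimulation genes, 2 were in the counts. Icosl had no read, and Cd274, which encodes PD-L1, had no read in type 2 cells, 4.69 CPM in type 1 cells and 3.49 in the rest. The few markers of professional antigen-presenting cells that were in the counts were at or near 0 in type 2 cells. Of 7 leukocyte markers 1 was in the counts, Ptprc, which encodes the CD45 that the sort selected against. Ptprc had 0 reads in the 27 type 2 cells, which allows up to 0.276 CPM at 3 reads. Of 12 macrophage markers 2 were in the counts, Csf1r and Plet1, and each had 3 reads in type 2 cells. Csf1r was at 398 CPM in type 1 cells and Plet1 at 93.9 CPM in the rest, so neither marked macrophages alone here. Of 7 dendritic markers 2 were in the counts (Xcr1 at 1.01 CPM in type 2 cells, Zbtb46 at 0), and of 6 B cell markers 2 (Cd79a at 1.38 CPM and Cd79b at 0).

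The genes most like the class II sum over all cells were led by Sftpc. Among 4549 genes with a read in at least 20% of cells, the 8 highest by Spearman's rho were Sftpc (0.73), Sftpb (0.65), Sftpa1 (0.64), Scd1 (0.64), Lyz2 (0.63), Slc34a2 (0.63), Cxcl15 (0.62) and Lgi3 (0.58), and Sftpc was used to form the class. Over the cells outside type 2 the first 8 were Sftpc (0.49), Lgi3 (0.48), Lyz2 (0.40), Sftpb (0.38), Scd1 (0.37), Baiap2l1 (0.36), Bet1l (0.35) and Cxcl15 (0.35). These values pool cell classes and share the read total of each cell.

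In the 14 chip columns that also held a type 2 cell, 80 other cells had 87.5 CPM of class II (84.5 to 90.6), 1743 of their 3223 reads from the ciliated-like cell at column 17, and in the columns without one, 34 cells had 8.39 CPM (7.31 to 9.59). The cells of the rest gave 182 CPM and 2.04 CPM, with medians per cell of 6.58 and 0 CPM. Of their 2733 reads in the columns with a type 2 cell, 1743 were of that ciliated-like cell. Another 633 were H2-Eb1 reads of the cell at column 11 and row 10. For type 1 cells alone the intervals overlapped, with 22.5 CPM (20.5 to 24.6) and 19.4 CPM (16.7 to 22.4), medians per cell of 5.42 and 1.94 CPM and Sftpc medians of 163 and 60.97 CPM. Whether reads pass between cells of a column was not tested.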

How the data were processed

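Single-cell RNA-seq of 141 cells of 1 mouse was analysed. The values deposited by the authors are raw counts per gene from featureCounts, after trimming (Trim Galore) and alignment (HISAT2, GRCm38). Versions, the annotation and the strand setting are not given in the sources used here. Nor do they say that reads were collapsed by molecular identifiers. The chip was scanned by microscope to check capture, the paper states that single cells alone were analysed, and doublets were not called here. Of the 141 cells, 92 had a mitochondrial share below 0.15, the limit of the paper, and 49 did not. These 49 were 19 of 64 type 1 cells, 16 of 27 type 2 cells and 14 of the 50 others.

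All 17136 genes and 141 cells were used. Levels are CPM of summed counts, with exact Poisson intervals. Ratios have conditional binomial intervals and shares Clopper-Pearson intervals, all at 95%. A count of 0 allows up to 3 counts. With 1 mouse no test was made. Members and lists were chosen with earlier results of these data known. The genes named are the 8 members, list genes of at least 20 CPM in any class, genes behind small counts, and for each sum the 8 genes with the highest rho. Groups of the rest took the marker list with the largest share of genes at 100 CPM, with at least 3 such genes. That rule and the level of 100 CPM were set after seeing the data. The fold and rho steps were tested on simulated data.

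Alternatives changed the mitochondrial maximum (0.15), the class cuts (by a factor of 2), the weight of cells, the read totals, the depth (90000 reads), the detection minimum (5 reads), the filter, the correlation, the chip columns and single cells. The tools were blastn 2.17.0, matplotlib 3.10.9, pandas 2.3.3, scipy 1.17.1 and numpy 2.4.6 under Python 3.11.15.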

Additional observations from a re-analysis of the deposited data

How the results depend on the processing

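No cell passed both class cuts, so leaving such cells out changed nothing. The class II ratio of type 2 cells to others stayed positive throughout, at a log2 of 6.09 with a mitochondrial share below 0.15, 5.69 and 5.89 with cuts divided and multiplied by 2, 5.85 for the mean over cells, 6.38 with the read total less mitochondrial genes, Sftpc and Scgb1a1, 6.004 without the top cell, 8.19 with chip columns up to 10 alone, 5.08 with the later columns and 7.17 without the ciliated-like cell (chosen after seeing the data). The class I ratio of type 1 to type 2 cells was 0.068 with the same mitochondrial maximum, 0.36 with cuts multiplied by 2, 0.15 without the top cell, 1.00 and 0.057 in the earlier and later chip columns and 0.33 without the type 2 cell nearest the Sftpc cut (chosen after seeing the data), and turned to -0.033 with the other read total. That of the rest to type 1 cells was -0.39 and -0.44 with the cuts changed, -0.30 for the mean over cells, -0.21 with the other read total, -0.25 without the top cell and -1.56 in the later columns, and turned to 0.11 in the earlier ones. The cause was not tested. Type 2 cells with all 4 genes fell to 40.7% at 5 reads. Genes past 4-fold between type 2 and other cells, in either direction, numbered 4784, and 1488 at 50 CPM. The Spearman correlation of Cd74 with H2-Ab1 within type 2 cells was 0.61 with a mitochondrial share below 0.15 and 0.55 with cuts divided by 2. Leaving out the cell with the most reads of each gene, or the 3 type 1 cells with most Cd74 (both chosen after seeing the data), changed calls of single genes in 5 of the lists and the Cd74 value, as given beside each. No paired analysis was possible because the result comes from no test and there is 1 sample.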

Other observations

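The 8 genes most like the class I sum over all cells were Cflar (rho 0.37), Ifit3 (0.36), Atp5l-ps1 (0.34), Gm4853 (0.33), Ifi27 (0.31), Cox7a2 (0.31), Ube2e3 (0.30) and Mkrn1 (0.30), all weak and over cells that share 1 mouse and pool the classes. Of the 9 interferon-induced genes of the list, 7 had 10 CPM, and 5 of those were past 4-fold lower in type 2 cells and 0 higher, where 39.8% of all genes compared were lower. Without the cell with the most reads of each gene 4 were lower and 1 higher, Gbp2. Ifit3, an antiviral protein, was at 405 CPM in type 1 cells, 0.460 in type 2 cells and 16.1 in the rest, with 41.98% of its reads from 1 cell. Ifi27 was at 337, 52.04 and 261 CPM in the same order. Irf1, a factor that binds interferon elements, was at 39.3, 3.03 and 12.1 CPM.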
